A study of Sus scrofa with 10 samples.

Results

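The genes described here were 10 chaperone genes of skeletal muscle, taken by name from a list drawn up with earlier results of these data known. They were 5 small heat shock protein genes (HSPB1, HSPB6, HSPB7, HSPB8 and CRYAB) and 5 genes of the HSP70 and HSP90 system (HSP90AA1, HSP90AB1, HSPA8, DNAJB1 and HSPH1). Of the 10 genes, 9 were matched to an identifier among the 25880 genes of the deposited table, and HSPB7 was not matched and was not analysed here. The pigs were purebred castrated males of the Alentejano (AL) and Bísaro (BI) breeds, 5 of each, all reared free-range and slaughtered at about 150 kg. The sample labels give this figure as a carcass weight and the study's methods as a live weight. Each library came from the longissimus lumborum, a loin muscle, of 1 pig. The spread between libraries of a breed therefore holds differences between animals and any from sampling or library preparation. With 1 library per pig these cannot be separated, and spread between pigs is meant below in this sense. In bulk muscle RNA, fewer cells of a type and less RNA per cell cannot be told apart.

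Small heat shock proteins bind unfolding proteins without using ATP and hold them in a state from which they can be refolded. In muscle they are abundant at the Z-disc and on intermediate filaments, where desmin and filamin C are known clients. HSP70 proteins refold clients in ATP-driven cycles started by J proteins and reset by nucleotide exchange factors, and HSP90 proteins finish and stabilise kinases, receptors and myosin. Heat shock factor 1 raises many of these genes together under proteotoxic stress by binding the heat shock element, a run of inverted GAA units.

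The values are normalised counts, that is, reads counted per gene divided by a size factor for each pig. Between 2298045 and 3343194 reads were counted on genes per pig, and the 10 highest genes held from 48.5% (AL44) to 60.3% (BI34) of them. The study reports many more sequenced reads per sample, nearly all of them aligned. The counted reads are therefore a small part of those sequenced. Why the others were not counted is not given in the sources used here and was not tested. The defining markers of skeletal muscle fibres were present in every pig, with 5 of the 6 listed markers matched and summing to between 16150 (AL44) and 46800 (BI34). AL44 stood apart from the other pigs, with the lowest muscle marker sum and the lowest share on the 10 highest genes. Of the 5 listed leukocyte markers, CD68, a macrophage gene, was highest in AL44, at 60.4. CD14 did not set AL44 apart, at 6.61 against 8.62 in BI36, and PTPRC, CD163 and LYZ were at 0 in AL44. ADIPOQ, LEP, PTPRC and LYZ were at or near 0 in all pigs. Other listed adipocyte markers were counted, with PLIN4 from 49.1 (BI36) to 162 (BI34) and CIDEC from 2.79 (AL46) to 24.1 (BI36). The libraries were stranded, and the strand setting of the counting is not given in the sources used here. ND6, the protein gene on the light strand of mitochondrial DNA, had a mean of 52623, and the 9 heavy-strand genes looked at had means from 98.1 (ND2) to 2556 (ND5). Of the 10 highest genes, 6 had a unique position, and all 6 had a gene on the opposite strand within 5 kb. RABEP2 was 71.4-fold above ATP2A1, the calcium pump of fast fibres, and CTSF 110-fold above ACTN3, an actinin of fast fibres. The value listed for a gene is therefore not taken here as a measure of its messenger RNA, and the comparisons below are of the listed values.

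Promoter windows were read to see which of the genes carry a heat shock element next to their annotated start. The windows run from 250 bases before to 50 bases after the start of each gene in RefSeq (Sscrofa11.1, annotation release 106), and 9 of the 10 genes had one, HSPB7 among them and HSP90AA1 not. The motif searched was GAANNTTCNNGAA or its reverse complement TTCNNGAANNTTC, with 3 units, and the shorter GAANNTTC or TTCNNGAA, with 2 units. Each 3-unit motif contains both shorter ones, and each shorter one reads the same on both strands. The 3-unit motif was found in 0.379% of 19523 windows and a 2-unit motif in 12.3%. Among these 9, 2 had a 3-unit motif, HSPA8 and HSP90AB1. DNAJB1, HSPB1 and HSPH1 had only 2-unit motifs, and HSPB6, HSPB8, CRYAB and HSPB7 had none. Some of these windows follow, 5′ to 3′ on the strand of the gene, with the motifs in capitals, because HSPA8 and HSP90AB1 hold the full element and HSPB1 and HSPH1 are the genes that varied most between pigs.
HSPA8, chr9:49986711-49987010, minus strand: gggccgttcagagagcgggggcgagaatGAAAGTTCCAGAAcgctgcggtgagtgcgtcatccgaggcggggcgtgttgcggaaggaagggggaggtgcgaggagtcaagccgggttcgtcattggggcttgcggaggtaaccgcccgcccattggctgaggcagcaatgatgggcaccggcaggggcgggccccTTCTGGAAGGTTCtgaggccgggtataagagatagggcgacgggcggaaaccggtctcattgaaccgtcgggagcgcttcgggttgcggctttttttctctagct
HSP90AB1, chr7:39237049-39237348, plus strand: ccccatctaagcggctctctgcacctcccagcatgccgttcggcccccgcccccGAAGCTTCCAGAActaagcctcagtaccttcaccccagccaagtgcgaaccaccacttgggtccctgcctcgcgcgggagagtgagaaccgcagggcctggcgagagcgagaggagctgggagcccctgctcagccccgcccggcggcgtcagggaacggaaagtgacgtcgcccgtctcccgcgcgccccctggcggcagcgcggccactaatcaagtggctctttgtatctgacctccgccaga
HSPB1, chr3:10039392-10039691, minus strand: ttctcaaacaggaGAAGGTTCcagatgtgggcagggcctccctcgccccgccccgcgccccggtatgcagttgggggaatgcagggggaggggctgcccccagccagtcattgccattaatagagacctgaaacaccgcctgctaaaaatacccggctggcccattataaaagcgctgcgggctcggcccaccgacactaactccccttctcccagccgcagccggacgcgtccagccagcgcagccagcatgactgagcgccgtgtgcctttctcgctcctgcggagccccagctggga
HSPH1, chr11:7759479-7759778, minus strand: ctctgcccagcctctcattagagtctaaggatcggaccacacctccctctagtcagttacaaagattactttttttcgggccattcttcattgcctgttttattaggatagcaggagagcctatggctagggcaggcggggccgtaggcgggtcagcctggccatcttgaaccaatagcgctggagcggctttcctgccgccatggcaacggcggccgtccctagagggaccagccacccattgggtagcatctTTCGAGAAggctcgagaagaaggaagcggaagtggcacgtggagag
In HSPA8 the 3-unit motifs lay at bases -222 to -210 and -55 to -43 from the start. In HSP90AB1 the motif lay at -196 to -184, in HSPB1 at -237 to -230 and in HSPH1 at 5 to 12. The annotated start of HSPB1 is its start codon, so its window reaches less far upstream of transcription than a window set on a transcription start. The window of CRYAB lies wholly inside HSPB2, on the opposite strand. A match of letters describes the window and not a bound site.

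The first question was whether the chaperone genes differed between the breeds. None of the 9 genes was called, and the AL and BI values overlapped for every one of them, where 1.45% of tested genes had no overlap. With limma on log2(normalised count + 1) and Benjamini-Hochberg adjustment, 6 of the 9 reached the minimum of a mean of 50 in each breed, and 0 of these 6 passed an adjusted p of 0.05, nor did any have an unadjusted p under 0.05. Over all 1513 genes tested, 0 were called (0%), and 112 had an unadjusted p under 0.05 (7.4%). By other tools, edgeR called 0 genes and DESeq2 called 19 of the 1513 (1.26%), none of them one of the 6. Of the 6, 3 were higher in AL, and their median log2 fold change, AL minus BI, was 0.00, beside -0.05 over all genes tested.

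**Figure D1:**
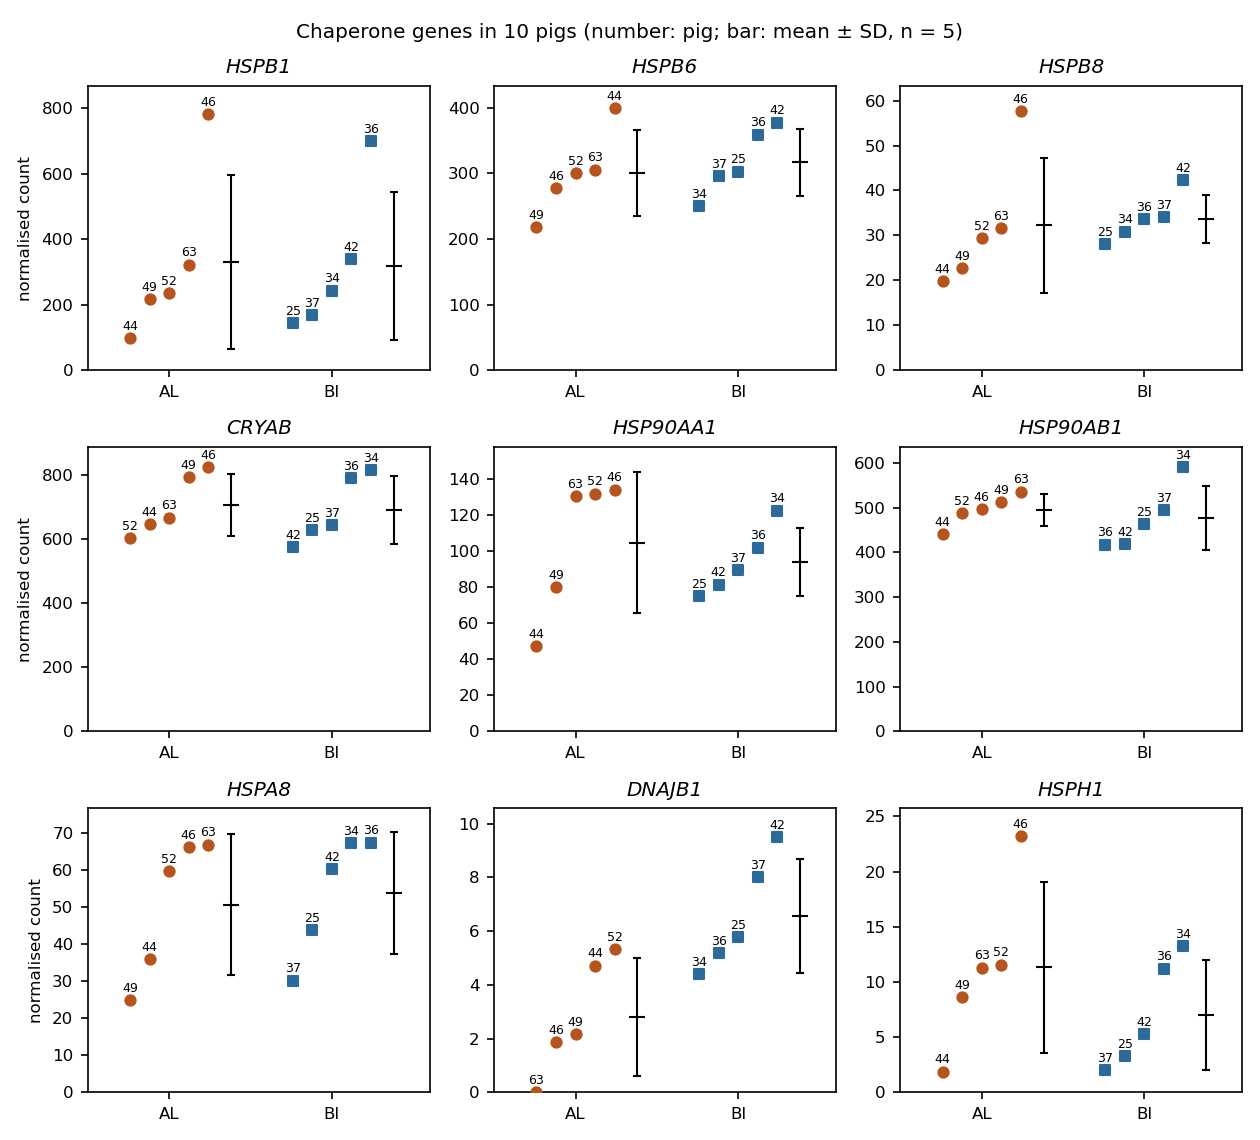
Normalised counts of the 9 chaperone genes in each of the 10 pigs (y axes, linear from 0; circles, AL; squares, BI; numbers name the pig; bars give mean ± SD, n = 5). The breeds overlap in every panel, and HSPB1 is high in AL46 and BI36, at 782.7 and 699.1.

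HSPB1 (heat shock protein 27) is a small heat shock protein that also binds actin and filamins. Its gene lies on chromosome 3 at 10038074 to 10039441, minus strand. In AL the normalised counts were 98.2 (AL44), 782.7 (AL46), 216.8 (AL49), 235.7 (AL52) and 322.3 (AL63), and in BI 145.0 (BI25), 243.4 (BI34), 699.1 (BI36), 169.4 (BI37) and 339.1 (BI42). AL46 and BI36 stood far above the other pigs, 1 in each breed, and AL44 was the lowest. Its mean was 331 ± 265 in AL and 319 ± 225 in BI (SD, n = 5 each). The log2 fold change was -0.03 (SE 0.51, 95% interval -1.13 to 1.07, adjusted p = 0.983 by limma). The interval reaches beyond 1 log2 unit in either direction, and without AL46 the value was -0.42 and without AL44 it was 0.32.

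CRYAB (αB-crystallin) is the chief small heat shock protein of desmin filaments and lies on chromosome 9 at 39638505 to 39643530, minus strand. It was listed at 645.8 (AL44), 823.6 (AL46), 793.0 (AL49), 602.2 (AL52) and 666.2 (AL63) in AL, and at 627.6 (BI25), 814.0 (BI34), 788.7 (BI36), 643.4 (BI37) and 574.6 (BI42) in BI. The pigs of both breeds covered nearly the same range, and AL46 and BI34 were the highest of their breeds. CRYAB had a log2 fold change of 0.04 (SE 0.14, 95% interval -0.27 to 0.34, adjusted p = 0.958 by limma). On the opposite strand, HSPB2 overlaps CRYAB by 3414 bp in RefSeq, and no value was matched to HSPB2.

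HSPB6 (HSP20), a small heat shock protein of smooth, cardiac and skeletal muscle, lies on chromosome 6 at 45181439 to 45184011, minus strand. Its counts were 399.3 (AL44), 277.0 (AL46), 217.9 (AL49), 300.6 (AL52) and 305.4 (AL63) in AL, and 302.3 (BI25), 250.03 (BI34), 358.6 (BI36), 295.6 (BI37) and 377.1 (BI42) in BI. Here AL44, which was low for HSPB1, was the highest pig. For HSPB6 the log2 fold change was -0.09 (SE 0.17, 95% interval -0.47 to 0.29, adjusted p = 0.923 by limma). LIN37, on the opposite strand, ends 55 bp from HSPB6 and had a mean of 23164, 75.1-fold that of HSPB6.

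HSPB8 (HSP22) works with the co-chaperone BAG3 in clearing damaged filamin, and its gene lies on chromosome 14 at 33626125 to 33639824, minus strand. It was below the minimum of 50, with 19.8 (AL44), 57.6 (AL46), 22.7 (AL49), 29.4 (AL52) and 31.7 (AL63) in AL, and 28.0 (BI25), 30.8 (BI34), 33.6 (BI36), 34.1 (BI37) and 42.3 (BI42) in BI. AL46 was again the highest pig and AL44 the lowest, while BI36 lay in the middle of its breed. Tested among the 3566 genes with a mean of at least 10, of which 0.028% were called, its log2 fold change was -0.15 (SE 0.28, 95% interval -0.74 to 0.44, adjusted p = 0.925 by limma).

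HSP90AB1 is the constitutive cytosolic HSP90 and, under its older name HSPCB, was 1 of the study's reference genes for quantitative PCR. It lies on chromosome 7 at 39237299 to 39250479, plus strand. The AL pigs had 440.9 (AL44), 496.4 (AL46), 512.5 (AL49), 488.3 (AL52) and 536.1 (AL63), and the BI pigs 462.9 (BI25), 590.4 (BI34), 417.2 (BI36), 494.1 (BI37) and 418.3 (BI42). The highest and lowest pigs were both BI. HSP90AB1 had a log2 fold change of 0.06 (SE 0.13, 95% interval -0.22 to 0.34, adjusted p = 0.929 by limma). SLC35B2, on the opposite strand, overlaps its end by 237 bp and had a mean of 4942, 10.2-fold higher.

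HSP90AA1 is the stress-inducible cytosolic HSP90, which in resting muscle helps to fold myosin. No position is given, since its RefSeq copy lies on an unplaced scaffold. It was listed at 47.2 (AL44), 133.9 (AL46), 79.8 (AL49), 131.6 (AL52) and 130.1 (AL63) in AL, and at 75.0 (BI25), 122.3 (BI34), 101.7 (BI36), 89.2 (BI37) and 81.3 (BI42) in BI. AL held both the lowest pig and the 3 highest. For HSP90AA1 the log2 fold change was 0.07 (SE 0.28, 95% interval -0.54 to 0.68, adjusted p = 0.959 by limma).

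HSPA8 (HSC70), the constitutive cytosolic HSP70, lies on chromosome 9 at 49982278 to 49986760, minus strand. Its counts were 35.9 (AL44), 66.0 (AL46), 24.8 (AL49), 59.6 (AL52) and 66.7 (AL63) in AL, and 43.7 (BI25), 67.2 (BI34), 67.2 (BI36), 30.1 (BI37) and 60.2 (BI42) in BI. Each breed had pigs near 60 to 67 and others well below. The log2 fold change was -0.12 (SE 0.32, 95% interval -0.81 to 0.58, adjusted p = 0.952 by limma).

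HSPH1 (HSP105), a nucleotide exchange factor for HSP70, was counted on 58 reads in AL and 36 in BI in all. It lies on chromosome 11 at 7733874 to 7759528, minus strand. The normalised counts were 1.89 (AL44), 23.2 (AL46), 8.63 (AL49), 11.6 (AL52) and 11.3 (AL63) in AL, and 3.30 (BI25), 13.2 (BI34), 11.2 (BI36), 2.0 (BI37) and 5.28 (BI42) in BI. AL46 was the highest pig, and AL44 and BI37 had 2 reads each, below the floor of 3 reads used for detection. Over the 14681 genes with at least 1 read, of which 0.272% were called, the log2 fold change was 0.58 (SE 0.48, 95% interval -0.38 to 1.54, adjusted p = 0.839 by limma).

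DNAJB1 (HSP40), the J protein that starts HSP70 cycles after heat shock, had the lowest normalised count of the 9 genes, with 15 reads in AL and 34 in BI in all. It lies on chromosome 2 at 64761672 to 64764482, plus strand. Its normalised counts were 4.72 (AL44), 1.86 (AL46), 2.16 (AL49), 5.34 (AL52) and 0 (AL63) in AL, and 5.77 (BI25), 4.41 (BI34), 5.17 (BI36), 8.02 (BI37) and 9.51 (BI42) in BI. All BI pigs were above 3 of the 5 AL pigs, and AL44 and AL52 overlapped the BI range. The log2 fold change was -1.21 (SE 0.51, 95% interval -2.23 to -0.18), which did not pass the adjustment over the 14681 genes (limma adjusted p = 0.647). The exact two-sided permutation test over the 252 divisions of the pigs gave p = 0.0397 for this gene alone, where the smallest p the design allows is 0.00794. An unadjusted p under 0.05 by limma was found for 6.38% of the 14681 genes, so 1 such gene among 9 is near the background.

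**Figure D2:**
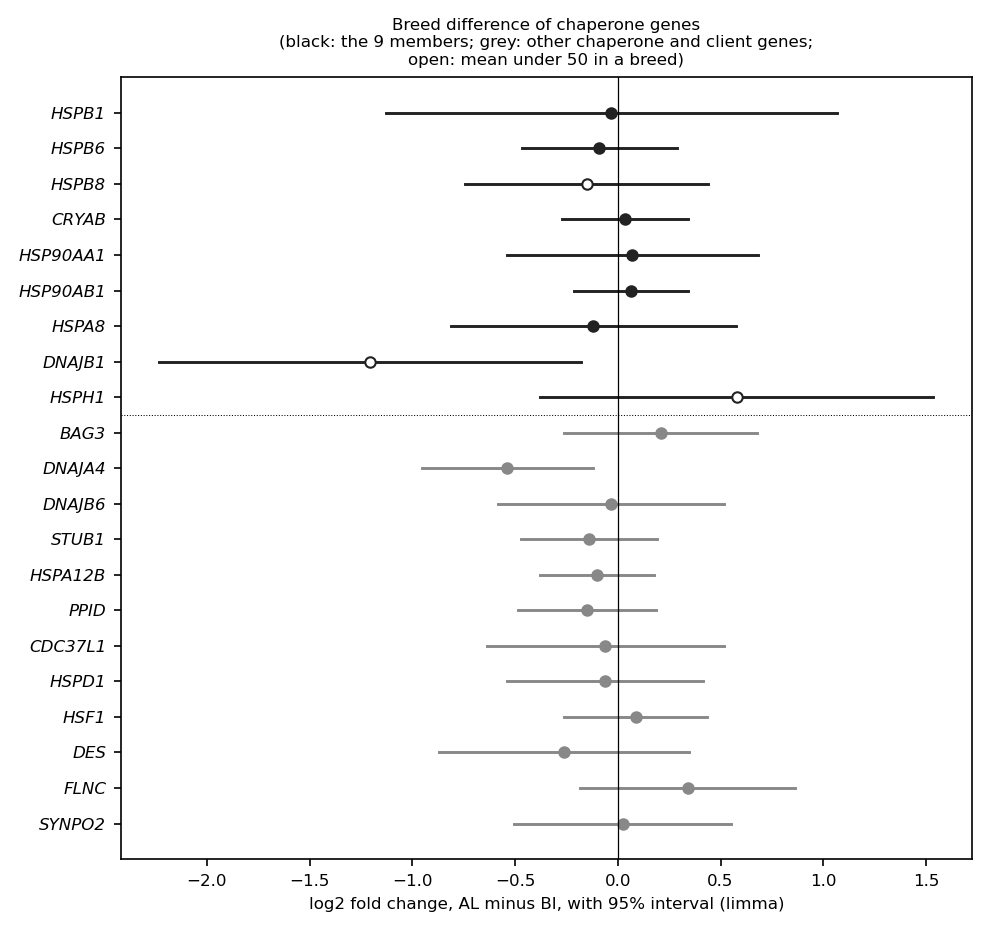
Log2 fold change, AL minus BI, of normalised counts (x axis), with 95% intervals from limma, for the 9 chaperone genes (black) and for the tested genes of the chaperone and client lists (grey); open circles are genes with a mean under 50 in a breed. The widest interval among the 6 tested chaperone genes is that of HSPB1, from -1.13 to 1.07, and the intervals of DNAJB1 and DNAJA4 alone leave out 0.

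Expressed per kilobase of RefSeq exon, the listed values fell into 3 tiers, parted where the ranges of neighbouring genes did not overlap. Since the strand setting of the counting is not given in the sources used here, this is an order of listed values and not of messenger RNA. CRYAB (566 ± 77.6 per kb), HSPB1 (521 ± 372), HSPB6 (210 ± 38.1) and HSP90AB1 (157 ± 17.5) formed the highest tier (mean ± SD, n = 10 pigs). The ranges of neighbours in this order overlapped, and CRYAB was above HSPB1 in 7 of 10 pigs and HSPB6 above HSP90AB1 in 8 of 10. The exon length of HSPB1, 624 bp, is its coding length, so its level per kb is overstated beside the others. HSP90AA1 (40.8 ± 12.1), HSPA8 (23.2 ± 7.49) and HSPB8 (16.0 ± 5.16) followed. Every pig had a higher listed value for HSP90AB1 than for HSP90AA1, with no overlap between pigs (lowest 135, highest 55.1). DNAJB1 (3.60 ± 2.18) and HSPH1 (2.48 ± 1.77) were lowest, below every value of HSPB8, and were not separated from each other.

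The second question was how far each gene varied between pigs of the same breed. The genes differed widely in this respect. The SD within breed of log2(normalised count + 1) was 0.993 for HSPB1, against 0.307 for the median tested gene and 0.0783 from counting error alone, and 13 of the 1513 tested genes had a larger SD. The highest pig had 7.97-fold the HSPB1 value of the lowest. HSP90AB1 lay at the other end, with an SD of 0.164, at the 8.99th percentile of tested genes, and a 1.42-fold range. CRYAB (SD 0.207, 1.43-fold) and HSPB6 (SD 0.277, 1.83-fold) were also below the median tested gene. The small heat shock genes with the highest listed values thus differed in their spread.

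HSPA8 (SD 0.559, 2.71-fold), HSP90AA1 (SD 0.501, 2.84-fold) and HSPB8 (SD 0.435, 2.91-fold) lay above the median tested gene, at the 89.3rd, 84.1st and 73.8th percentiles. Counting error alone would give SDs of 0.197, 0.143 and 0.247 for these 3 genes. HSPH1 had the largest SD, 1.04, beside a counting SD of 0.471, and DNAJB1 had an SD of 0.802 beside 0.652. The counting SD leaves out the pseudocount of 1, so it is too high for genes on few reads. How much of the SD of HSPH1 and DNAJB1 came from counting was not tested. Of the study's other reference genes, ACTB had a mean of 27.2 and an SD at the 95.3rd percentile, TOP2B had a mean of 3.03, near the floor, and RPL19 was not matched to an identifier and was not analysed here.

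**Figure D3:**
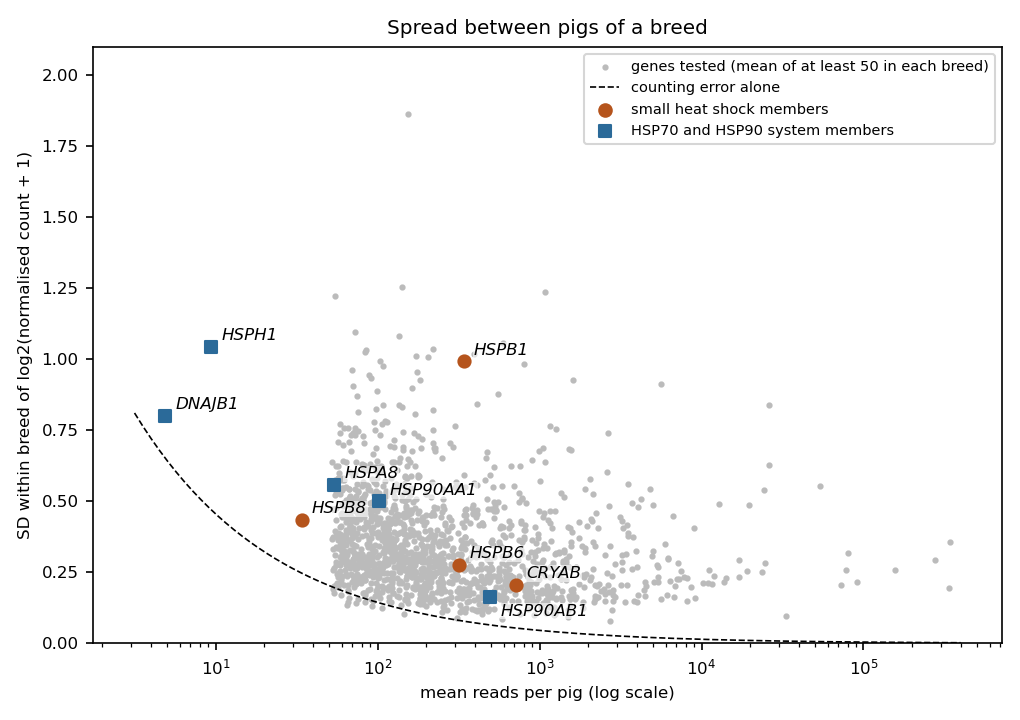
SD within breed of log2(normalised count + 1) (y axis) against mean reads per pig (x axis, log scale) for the 1513 tested genes (grey points) and the 9 chaperone genes (circles, small heat shock; squares, HSP70 and HSP90 system); the dashed line is the SD that counting error alone would give without the pseudocount of 1, which is too high at few reads. HSPB1, at 0.993, lies above most genes of like depth, while HSP90AB1, at 0.164, lies near the bottom of the cloud.

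The third question was whether the genes varied together from pig to pig. With the breed means removed, 36 pairs were compared over 10 pigs, and 0 passed an adjusted p of 0.05 (Benjamini-Hochberg over the 36), while 5 had an unadjusted permutation p under 0.05. These 5 were the pairs with an r of at least 0.7 in either sign, which 9.49% of all pairs of tested genes also reached. HSP90AA1 and HSPH1 had r = 0.84 (permutation p = 0.00285, adjusted 0.0837) and rho = 0.82 (permutation p = 0.00112). This relation rested partly on AL44, the lowest pig for both, since r was 0.68 without it and 0.64 without AL44 and AL46. HSPB6 and HSP90AB1 ran in opposite directions, with r = -0.77 (permutation p = 0.00465, adjusted 0.0837) and rho = -0.68 (permutation p = 0.0327), and r = -0.89 without AL44 and AL49. With a library size that leaves out the 10 highest genes r was -0.56 (adjusted permutation p = 0.329). The share of reads on the 10 highest genes ran with HSP90AB1 (r = 0.73) and against HSPB6 (r = -0.77), each with an adjusted permutation p of 0.0910 over 9 genes, and its part in this relation was not tested beyond this.

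HSPB1 ran with HSPH1 (r = 0.83, permutation p = 0.01, adjusted 0.120, and rho = 0.79, permutation p = 0.0174) and with HSPB8 (r = 0.79, permutation p = 0.0148, adjusted 0.133, and rho = 0.78, permutation p = 0.0160). Without AL46 and BI36 these were r = 0.79 for both pairs. HSPA8 and HSPH1 had r = 0.72 (permutation p = 0.0333, adjusted 0.240) and rho = 0.73 (permutation p = 0.0233), and r = 0.91 without AL49 and BI37. HSPB1, HSPB8, HSPH1, HSP90AA1 and HSPA8, grouped after the values were seen, had r from 0.57 (HSPB8 and HSPA8) to 0.84 in the pairs among them. Several of these rested on AL44 and AL46. Without these pigs HSPB8 and HSPH1 went from r = 0.61 to 0.04 and HSPB8 and HSP90AA1 from 0.63 to 0.25, and HSPB1 and HSP90AA1 went from 0.67 to 0.44 without AL44. Where 2 pigs were left out, the breed means removed stayed those of all 10 pigs, so an r without them can hold a leftover breed difference. The median r of the 36 pairs was 0.21, beside 0.01 over the 1143828 pairs of tested genes, of which 2.08% had an r of at least 0.8. HSPB1 and HSPB6, both small heat shock genes, had r = -0.06, and DNAJB1 had a negative r with every other gene but HSPB6.

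**Figure D4:**
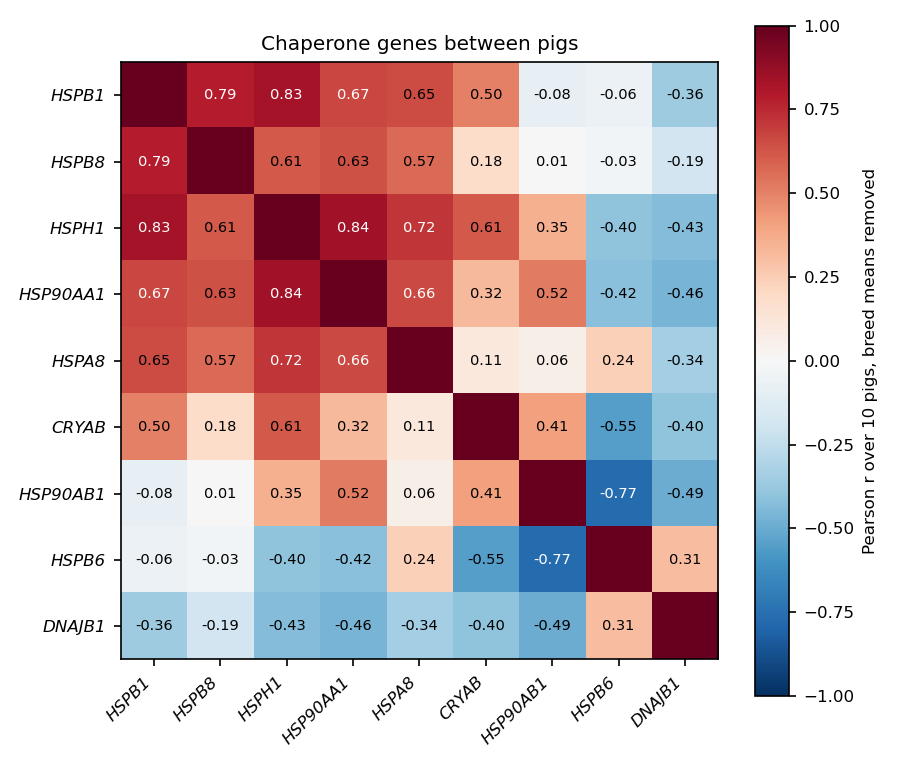
Pearson r between the 9 chaperone genes over 10 pigs, of log2(normalised count + 1) with breed means removed (colour scale from -1 to 1, value printed in each cell). The order of the genes was chosen after the values were seen, and values without 2 pigs keep the breed means of all 10 pigs. HSP90AA1 and HSPH1 have the highest r, 0.84, and HSPB6 and HSP90AB1 the lowest, -0.77, no pair passed the adjustment over 36 pairs, and several values rest on AL44 and AL46 (HSPB8 and HSPH1 are at 0.61, and at 0.04 without them).

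Cell type markers moved with some of these genes. The summed fibroblast markers, with all 6 of 6 matched, ran from 14.2 (AL44) to 112 (AL46) in AL and from 19.0 to 43.3 in BI. The collagen genes made up most of this sum, and PDGFRA was at 0 in every pig but AL44. Of the 6 markers, 0 reached the minimum of a mean of 50 in each breed, so the sum rested on low counts. HSPB1 had r = 0.90 with the sum (permutation p = 0.00450, adjusted over 9 genes 0.0405, and rho = 0.90, permutation p = 0.00338), and r = 0.93 without AL46 and BI36. HSPB8 (r = 0.82, permutation p = 0.0296, adjusted 0.0888, and r = 0.38 without the 2 farthest pigs) and HSPH1 (r = 0.85, permutation p = 0.0116, adjusted 0.0523, and 0.62) did not pass the adjustment, and HSP90AB1 had r = 0.11. The part of fibroblasts in the spread of HSPB1 was not tested. What share of all tested genes had such an r with the fibroblast sum was not looked at.

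The muscle fibre marker sum ran with HSP90AA1 (r = 0.90, permutation p = 0.00837, adjusted over 9 genes 0.0522, and 0.75 without the 2 farthest pigs) and HSPH1 (r = 0.79, permutation p = 0.0116, adjusted 0.0522, and 0.52). For HSPB1 the same r was 0.50, and 0.76 without the 2 farthest pigs, for HSPA8 0.67 and 0.78, and for HSP90AB1 0.64 and 0.49, none of which passed the adjustment. AL44, with a sum of 16150, was the lowest pig for the markers, for HSP90AA1 and for HSPH1. The part of AL44 and of fibre content in these values was not tested. These comparisons with marker sums were added after the values were seen. Each was adjusted over its own 9 genes only. No adjustment was made across the 2 marker sums, the slow fibre mean and the share of reads on the 10 highest genes. The marker sums of other cell types were not compared with these genes.

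Of the other chaperone genes, none was called between the breeds. Among 6 other small heat shock genes, 3 were matched, 2 had a read and 0 were tested. Of 39 HSP70, J protein and exchange factor genes 5 were tested (HSPA12B, DNAJA4, DNAJB6, BAG3 and STUB1), with a median log2 fold change of -0.10. DNAJA4, a J protein of striated muscle, had means of 104 ± 19.9 in AL and 153 ± 33.7 in BI (SD, n = 5 each), and its log2 fold change was -0.54 (SE 0.19, limma adjusted p = 0.407). Its AL values ran from 81.4 to 136 and its BI values from 109 to 196, so the breeds overlapped. BAG3, which links HSP70 to HSPB8, was at 0.21 on the same scale (limma adjusted p = 0.854).

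The HSP90 list of 18 genes gave 2 tested genes, CDC37L1 (-0.06) and PPID (-0.15), and the 14 chaperonins and other chaperones gave 1, HSPD1 (-0.06), all as log2 fold changes. HSF1, the main heat shock factor, was the 1 tested of 6 factors and regulators, at 0.09 (limma adjusted p = 0.921), with an SD within breed of 0.203. Of 7 clients of small heat shock proteins 3 were tested, DES at -0.26, FLNC at 0.34 and SYNPO2 at 0.02. None of these 7 tested genes had an unadjusted p under 0.05. Of the fibre type lists, 5 of 5 tested slow fibre genes were higher in AL, with a median log2 fold change of 0.73, 4 with an unadjusted p under 0.05 (7.4% of tested genes) and 0 called by limma, and 7 of 9 tested fast fibre genes were higher in BI, with a median of -0.12, where 635 of the 1513 tested genes were higher in AL and 878 in BI. Over pigs, the mean of the slow fibre genes had r from -0.49 (DNAJB1) to 0.16 (HSPB6) with the 9 chaperone genes, and none passed the adjustment over 9. Without the 2 farthest pigs DNAJB1 was at 0.37 and HSPH1 went from -0.34 to -0.65.

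HSPB1 was compared with the 12 tested genes of the chaperone and client lists, and HSPH1 with the same genes, 24 relations in all, chosen after the spread had been seen. FLNC, filamin C, which cross-links actin at the Z-disc, followed HSPB1 most closely. Its normalised counts were 643 (AL44), 1774 (AL46), 1083 (AL49), 993 (AL52) and 1267 (AL63) in AL, and 741 (BI25), 801 (BI34), 1156 (BI36), 665 (BI37) and 1047 (BI42) in BI. AL46 and BI36 were the highest pigs of their breeds for both genes, and AL44 was the lowest of all. Over the 10 pigs r was 0.96 (permutation p = 3.4e-04, adjusted over the 24 relations 0.00816) and rho was 0.95 (permutation p = 0.00123). Without AL46 and BI36 r was 0.95, and among the 1512 other tested genes FLNC ranked 1 for its r with HSPB1.

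BAG3 had r = 0.83 with HSPB1 (permutation p = 0.00959, adjusted 0.0743, and rho = 0.73, permutation p = 0.0330), but 0.44 without AL46 and BI36. DES, desmin, had r = 0.53 with HSPB1 (permutation p = 0.148, adjusted 0.356, and rho = 0.67, permutation p = 0.0535), but 0.79 without AL46 and BI36 and 0.28 without AL44. HSF1 had r = -0.24 with HSPB1 (permutation p = 0.515, adjusted 0.650) and -0.02 with HSPH1 (permutation p = 0.947, adjusted 0.951). HSPH1 also ran with FLNC (r = 0.83, adjusted permutation p = 0.0743, and 0.58 without AL44 and BI37), BAG3 (0.80) and DES (0.76). HSPA12B ran against HSPB1 (r = -0.71, adjusted permutation p = 0.0798, and -0.70 without AL46 and BI36). It also ran against HSPH1 (r = -0.77, adjusted permutation p = 0.0743, and -0.66 without AL44 and BI37). None of these HSPH1 and HSPA12B relations passed the adjustment. Nearest to the mean of the 4 small heat shock genes over the 10 pigs were FLNC (r = 0.93), the unnamed gene ENSSSCG00000037567 (0.92), DNASE1L1 (0.91), RPS3 and RPL29 (both 0.90). Nearest to the mean of the 5 HSP70 and HSP90 genes were NDUFS1 (0.89), TNNI2 (0.88), PCP2 and TNNC2 (both 0.87) and MAF (0.86). Both means were taken without scaling, so the genes with the largest SD weighed most. These were HSPB1 (SD 0.993) in the first mean, and HSPH1 (1.04) and DNAJB1 (0.802), both on few reads, in the second. Neither list therefore stands for likeness to every gene of its group.

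**Figure D5:**
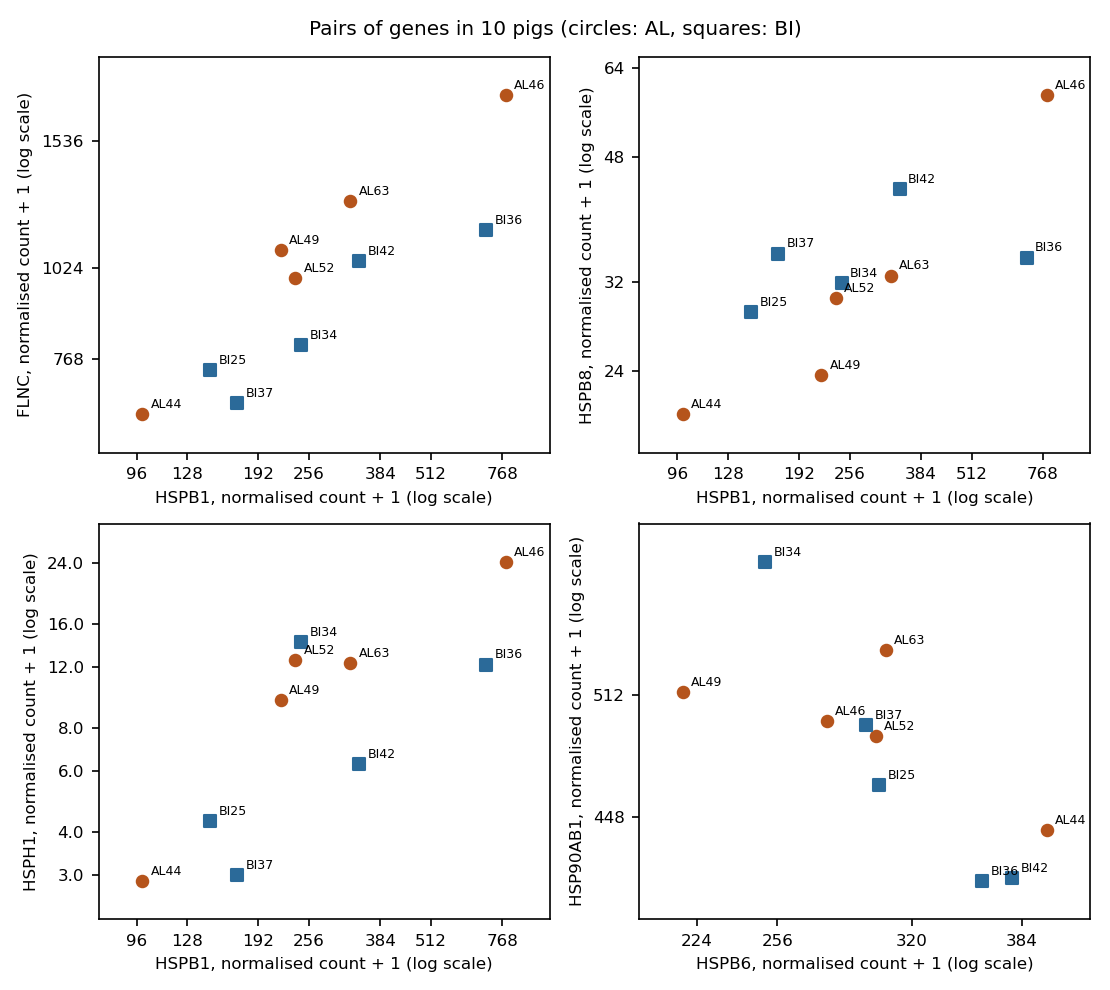
Normalised count + 1 (both axes, log scale) in 10 pigs for HSPB1 with FLNC, HSPB8 and HSPH1 and for HSPB6 with HSP90AB1 (circles, AL; squares, BI; labels name the pig). FLNC follows HSPB1 across all pigs (r = 0.96), while HSPB8 and HSPH1 follow it more loosely (r = 0.79 and 0.83) and HSPB6 and HSP90AB1 run in opposite directions (r = -0.77); all r are with breed means removed.

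The neighbours on the opposite strand were also compared. HSP90AB1 and SLC35B2, which overlap, had r = 0.64 over the 10 pigs (permutation p = 0.0485, adjusted over 2 relations 0.0970, and rho = 0.49, permutation p = 0.141). HSPB6 and LIN37 had r = -0.15 (permutation p = 0.749, adjusted 0.749). LIN37 was at 0.40 and SLC35B2 at 0.29 on the log2 scale, AL minus BI (limma adjusted p = 0.547 and 0.759), and neither difference passed the threshold. No annotated gene lay within 5 kb on the opposite strand of HSPB8, HSPA8, DNAJB1 or HSPH1. HSP90AA1, HSP90AB1 and HSPA8 have near-identical copies or paralogs in mammalian genomes, and how reads that match several copies were counted is not given in the sources used here.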

How the data were processed

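The longissimus lumborum of 10 pigs, 5 AL and 5 BI, was sequenced with 1 library per pig, and pigs were assigned to breeds through their labels. Trimming by the authors used Trim Galore 0.5.0, alignment used HISAT2 2.1.0 with genome Sscrofa11.1 and Ensembl release 94, and gene counts came from HTSeq 0.11.1. The signal values deposited by the authors are counts over a size factor per pig from DESeq2. The authors also deposited log2 fold changes, p-values and, as scores, standard errors and Wald statistics of their own breed comparison, which were not used. No batch or date is given in the sources used here.

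Symbols were paired with 14857 of the 25880 identifiers. Positions and promoters came from RefSeq annotation release 106, whose gene borders can differ from those counted on. Every value was a whole multiple of the smallest above 0 in its pig (100% within 0.01 reads), which gave the reads. With 2298045 to 3343194 reads counted on genes per pig, the floor of 3 reads was a normalised count of 2.47 to 3.39. Floors cover counting error only. Chi-square values per degree of freedom between pigs of a breed, 12.9 to 67.3, showed no library deposited more than once within a breed, and pigs of different breeds were not compared in this way.

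The planned test for normalised values, limma 3.58.1 in R 4.3.3 with an intensity trend, was run on log2(value + 1) of the 1513 genes whose mean reached 50 in both breeds, with Benjamini-Hochberg adjustment at 0.05, after being tested on simulated data. Single genes were also compared by an exact permutation test over 252 divisions of the pigs. Correlations used 100000 permutations of pigs within breed. For pairs of chaperone genes, breed means were taken again with 1 pig left out, but not with 2 left out. The plan counted 45 pairs, and 36 were left without HSPB7. Alternatives were pseudocounts of 0.1 and 10, other minimums, scaling that leaves out the 10 highest genes, limma-voom, edgeR 4.0.16 and DESeq2 1.42.0 on the recovered reads, breed means kept, and each pig left out. The genes named were all members, from each list the gene with the smallest p in each direction, the reference genes, neighbours on the opposite strand within 5 kb and the 5 genes most like the mean of each group. Those named beyond this rule, among them mitochondrial and highest genes, other tested list genes and marker genes, were chosen after their values were seen. The members and lists were chosen with earlier results of these data known.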

Additional observations from a re-analysis of the deposited data

Results flagged for a closer look

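Single pigs far from the other 4 of their breed were looked for with Dixon's ratio (limit 0.71 for 5 pigs) in 64 groups of pigs, 3 of which passed it, and chance alone passes about 1 group in 20. BAG3 in AL46 was 144, while the other AL pigs ran from 71.8 to 89.5 (ratio 0.754), and AL46 was also the highest AL pig for HSPB1, HSPB8, HSPH1 and FLNC. ATP2A1 in BI34 was 7343, against 3086 to 4150 in the other BI pigs (ratio 0.750), and BI34 had the highest muscle fibre marker sum, 46800. ENSSSCG00000037567, among the genes most like the small heat shock mean, was 63193 in BI36, against 11760 to 26470 in the other BI pigs (ratio 0.714). None of the 9 chaperone genes passed the limit in either breed.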

How the results depend on the processing

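No chaperone gene was called under any alternative. The count of genes called over all genes tested, 0 with the reported settings, was 1 where a mean of 50 in either breed was enough, 1 with a sum of at least 50 in each breed, 1 with a mean of at least 10, 40 with no minimum and 19 with DESeq2, and 0 to 1 when 1 pig was left out. The count of pairs past the adjusted threshold, 0, ran from 0 to 1 when 1 pig was left out: HSPB6 with HSP90AB1 passed without AL63 (r = -0.83), and HSP90AA1 with HSPH1 without BI37 (r = 0.92). The log2 fold change of HSPB1 changed sign with edgeR (0.060) and DESeq2 (0.053). Leaving out 1 pig, the log2 fold changes ran from -0.42 (without AL46) to 0.32 (without AL44) for HSPB1, from -0.20 to 0.019 for HSPB6, from -0.026 to 0.10 for CRYAB, from -0.043 to 0.33 (without AL44) for HSP90AA1, from 0.02 to 0.14 for HSP90AB1 and from -0.31 to 0.11 for HSPA8. The cause of these changes was not tested, and all these values lay inside the 95% intervals of the reported fits. HSPB8, HSPH1 and DNAJB1, below the minimum, were refitted only under the lower minimums. No paired analysis was possible because the breeds share no replicate numbers.

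With 5 pigs a breed, breed differences of any size within the intervals given remain compatible with these values. The small number of reads counted limited DNAJB1 and HSPH1, which rested on 49 and 94 reads in all. The strand of the counted reads limits what every listed level stands for.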
